A study of Mus musculus with 2 samples.

Results

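Cholesterol and fatty acids are both built from acetyl-CoA, and the 36 genes described here encode the enzymes of these routes and the proteins that set their transcription. They comprise 18 genes of the sterol branch, 12 of the fatty acid branch, and 6 that regulate SREBP (sterol regulatory element binding protein) or carry sterols. They were chosen by name from pathway knowledge, and their values were read on microarrays of mouse embryo fibroblasts (MEFs). Of these genes, 35 had at least 1 probe set assigned to them alone, out of 18193 genes in all, and Acat2 had none here. The 35 genes were covered by 83 of the 45037 probe sets.

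MEFs were cultured from minced day 12.5 embryos of wild type mice and of Ebp1 knock out mice, and both cultures were at passage 2. The knock out mice carry a retroviral gene trap in intron 2 of Pa2g4, the gene for the ErbB3 binding protein Ebp1, on a mixed C57BL/6 and 129SvEvBrd background. How many embryos went into each culture was not stated in the sources used here. There was 1 array per genotype, so no value below has an error or a p-value, and genotype, culture and array cannot be told apart. Signals are linear intensity units, and each difference is a log2 ratio, knock out over wild type. The study's minimum of 500 units and its 2-fold threshold were used. The minimum was applied here as 500 on at least 1 array, and signals under 100 were counted as low. For each gene the probe set with the highest mean log2 signal was taken.

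The targeted gene Pa2g4 was at 1178 on the array labelled knock out, against 1835 in wild type MEFs (log2 ratio -0.64). All 5 of its probe sets were lower, by log2 ratios from -0.90 to -0.33, but 4 of them stayed over 100, so the Pa2g4 signal was reduced but not absent. The study itself reported no Ebp1 transcript by RT-PCR and no Ebp1 protein by Western blot in its knock out MEFs. Where the Pa2g4 probe sets lie along the trapped transcript was not looked up, so the array does not settle the label. Below, knock out means the array labelled so. The 9 hybridization spike-ins read 1.31 times higher in the knock out hybridization (log2 0.39). Values scaled to them are given for each member that reached 500 and changed direction. Mvk (0.23) and Tm7sf2 (0.36), both under 500, had positive log2 ratios smaller than 0.39, so their direction would change too. The 7 fibroblast markers ranged from 3098 to 9308 in wild type and from 1952 to 11051 in knock out MEFs. All 7 fetal hepatocyte markers and all 4 erythroid markers with a probe set were under 100 on both arrays. In bulk RNA, fewer cells of a type and less RNA per cell cannot be told apart.

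In cells, sterol synthesis begins with the joining of acetyl-CoA units, passes through mevalonate, the isoprenoid farnesyl diphosphate and squalene, and ends with the trimming of lanosterol to cholesterol. When membrane sterols are scarce, the escort protein Scap carries SREBP from the endoplasmic reticulum to the Golgi, where it is cut and released to the nucleus. Insig proteins hold Scap back when sterols are plentiful. Srebf2 is best known for driving sterol genes and Srebf1 for driving fatty acid genes, and both act with the general factors NF-Y and Sp1 at promoters.

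Promoter sequences from RefSeq (mouse build GRCm38.p6) were found for 29 of the 36 genes, as windows from 250 bases before to 50 bases after an annotated start. None was found for Fdps, Fdft1, Sqle, Stard4, Scd1, Scd2 or Fads1. The windows were searched on both strands for TCACNCCAC, a form of the sterol regulatory element, for CCAAT, which NF-Y binds, for GGGCGG, which Sp1 binds, and for the E-box CACGTG. A gene was counted when any of its windows held the motif. The 200 bases before the start are printed for Hmgcs1, whose window held this form of the sterol regulatory element. They are also printed for Cyp51, Msmo1 and Sc5d, which had large positive log2 ratios, and for Fasn of the fatty acid branch. Other forms of the element were not searched, so a stretch without a match may still hold one. Capitals mark matches to TCACNCCAC and CCAAT on either strand, so that ATTGG is CCAAT read from the other strand.
Hmgcs1, chr13:119690151-119690350, plus strand: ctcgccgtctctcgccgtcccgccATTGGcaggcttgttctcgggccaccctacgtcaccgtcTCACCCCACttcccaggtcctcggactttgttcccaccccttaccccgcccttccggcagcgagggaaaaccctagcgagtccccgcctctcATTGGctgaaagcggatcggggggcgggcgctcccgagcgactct
Cyp51, chr5:4104698-4104897, minus strand: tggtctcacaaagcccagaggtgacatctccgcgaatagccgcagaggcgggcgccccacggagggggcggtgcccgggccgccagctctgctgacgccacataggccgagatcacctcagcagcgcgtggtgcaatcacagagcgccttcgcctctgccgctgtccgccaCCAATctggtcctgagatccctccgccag
Msmo1, chr8:64733579-64733778, minus strand: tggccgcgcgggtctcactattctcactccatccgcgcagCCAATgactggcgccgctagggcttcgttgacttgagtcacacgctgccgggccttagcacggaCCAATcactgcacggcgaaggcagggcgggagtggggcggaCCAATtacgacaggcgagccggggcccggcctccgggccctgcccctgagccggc
Sc5d, chr9:42264301-42264500, minus strand: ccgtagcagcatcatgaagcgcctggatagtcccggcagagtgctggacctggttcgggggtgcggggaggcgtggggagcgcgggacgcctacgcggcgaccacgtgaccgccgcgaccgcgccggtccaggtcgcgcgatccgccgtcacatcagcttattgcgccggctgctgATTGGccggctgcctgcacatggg
Fasn, chr11:120824548-120824747, minus strand: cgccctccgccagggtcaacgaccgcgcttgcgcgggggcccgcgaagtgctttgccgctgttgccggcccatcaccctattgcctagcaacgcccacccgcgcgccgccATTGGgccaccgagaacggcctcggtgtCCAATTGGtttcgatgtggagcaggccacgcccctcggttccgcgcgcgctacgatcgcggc

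CCAAT was in 24 of the 29 genes (82.8%), against 42.8% of 4122 genes that reached 500 on the arrays and had a promoter in the table, and 41.1% of all 27025 genes of the table. By branch it was in 14 of 15 sterol genes and in 6 of 9 fatty acid genes. The stretch printed for Msmo1 holds 3 such matches and that for Cyp51 holds 1, and those of Fasn include a pair that overlap. GGGCGG was also in 24 of the 29 genes, but it was in 74.6% of the genes that reached 500. The E-box was in 6 of the 29 genes, against 12.8% of those that reached 500. TCACNCCAC was found in Hmgcs1 alone of the 29 (3.45%), against 1.31% of the genes that reached 500 and 1.44% of all genes of the table. A match is a description of the letters in this window, and no test was run.

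No lipid synthesis gene was over 2-fold apart between the genotypes on its brightest probe set. Of the 35 genes 27 reached 500 on at least 1 array, and 26 of these did so on both, the exception being Srebf1, which did so on the wild type array only. Over all 5014 genes that reached 500, 0.758% were over 2-fold higher and 1.06% over 2-fold lower in knock out MEFs. At a 1.5-fold threshold 3 lipid synthesis genes were higher and 0 were lower, where 2.99% of all such genes were higher and 5.11% were lower. These 3 were Sc5d, Fdps and Msmo1, all of the sterol branch. These counts turned with spike-in scaling, where 0 members were over 1.5-fold higher (0.712% of all genes over the minimum) and 8 were over 1.5-fold lower (32.9% of all such genes). The 8 were Scap (-0.87), Hmgcs1 (-0.71), Lss (-0.69), Me1 (-0.67), Acly (-0.63), Srebf1 (-0.62), Srebf2 (-0.62) and Scd2 (-0.59). With median centring 2 members were higher (1.87% of all genes over the minimum), Msmo1 (0.48) falling short. Under that scaling 1 was lower, Scap at -0.59 (8.15% of all such genes). Of the 27 genes, 14 had a log2 ratio above 0 and 13 below it, where 42.2% of all genes that reached 500 were above 0 and 57.8% below. With spike-in scaling 28 members reached 500 and 4 of them were above 0, where the median of all genes that reached 500 was itself -0.46.

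Under the deposited scaling the sterol median was above 0, which turned with spike-in scaling, and the fatty acid median was below 0, which turned with the mean over probe sets. The 11 sterol genes that reached 500 had a median log2 ratio of 0.34, and 8 of them were above 0. The 10 fatty acid genes had a median of -0.11, with 4 above 0. The median over all genes that reached 500 was -0.05, with 42.2% above 0. With all 17 sterol and all 12 fatty acid genes that had a probe set the medians were 0.23 and -0.11, against -0.01 over all genes of the arrays. The difference between the branches was therefore 0.45 with the minimum and 0.33 without it. It was 0.02 when the log2 ratios of all probe sets of at least 100 were averaged for each gene (medians 0.17 and 0.15), so the contrast rests on the choice of the brightest probe set. Scaling to the spike-ins kept a difference of 0.40 but moved the sterol median to -0.09 and the median of all genes that reached 500 to -0.46.

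**Figure D1:**
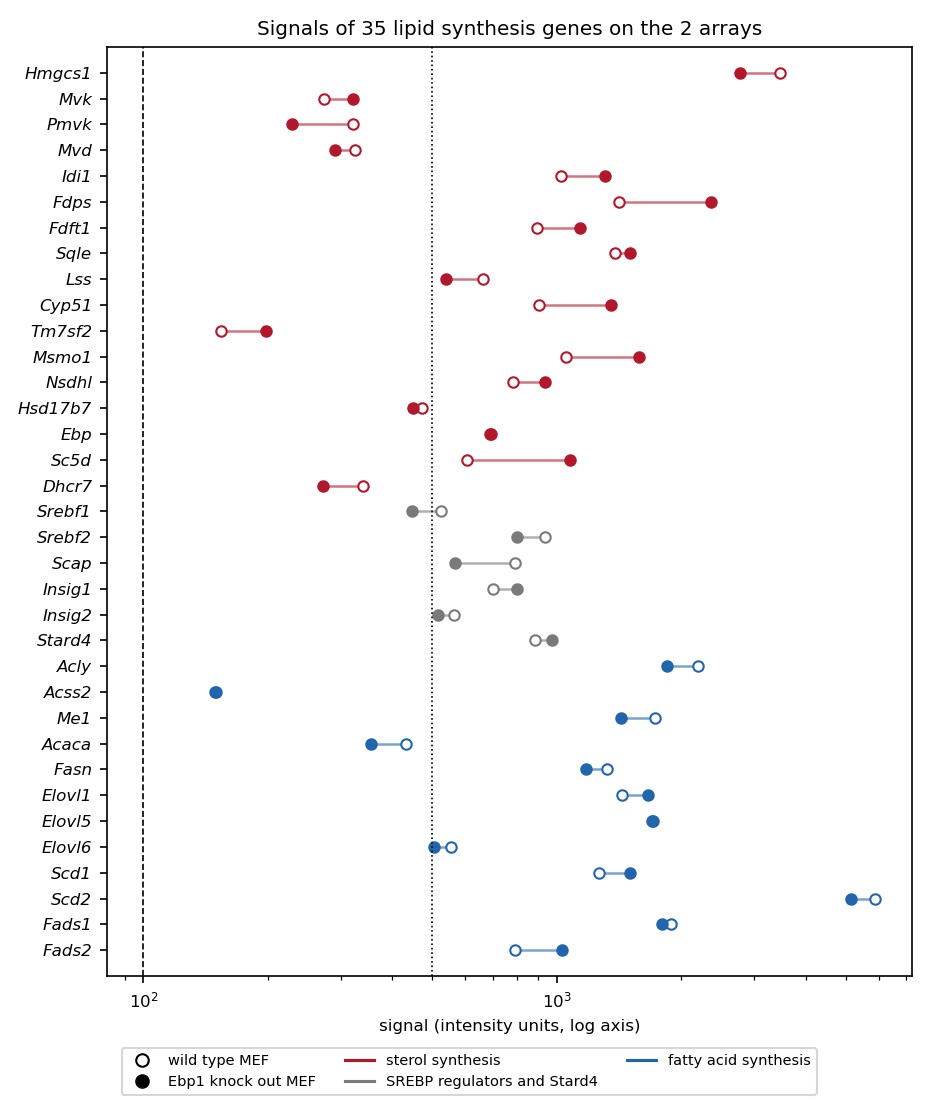
Signals of the 35 lipid synthesis genes with a probe set, on a logarithmic axis in intensity units, for wild type (open) and Ebp1 knock out MEFs (filled), 1 array each. The dashed line is at 100 and the dotted line at 500. Sc5d (606 and 1076) and Fdps (1414 and 2364) have the longest lines to the right, and Scap (792 and 568) has the longest to the left among genes over 500.

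In the mevalonate part of the sterol branch Fdps was higher in knock out MEFs under every scaling run, Idi1 under all but spike-in scaling, and Hmgcs1 was lower on its brightest probe set. Fdps encodes farnesyl diphosphate synthase, which makes the precursor shared by sterols and prenylated proteins, and its wild type and knock out signals were 1414 and 2364 (log2 ratio 0.74). A further probe set of Fdps was low on both arrays (4.08 and 5.20). Idi1, the isopentenyl diphosphate isomerase, was 1023 and 1309 (0.36), while its other probe set gave 788 and 778 (-0.02). Hmgcs1, the cytosolic HMG-CoA synthase, was 3464 and 2773 (-0.32) on its brightest probe set. The other probe sets of Hmgcs1 did not share this value, with 2724 and 2705 (-0.01), 2059 and 2035 (-0.02), and 680 and 1080 (0.67). Mvk, Pmvk and Mvd, which phosphorylate and decarboxylate mevalonate, were between 229 and 325 on both arrays, with log2 ratios of 0.23, -0.49 and -0.16.

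From squalene to cholesterol the largest log2 ratio was that of Sc5d, which encodes the desaturase that introduces the double bond of the sterol B ring. The wild type signal of Sc5d was 606 and the knock out signal 1076 (log2 ratio 0.83). The dimmer probe sets of Sc5d gave 209 and 293 (0.49) and 188 and 182 (-0.05), so they spread across 0. Msmo1, the C4-methylsterol oxidase, was 1050 and 1577 (0.59), a ratio just past the 1.5-fold threshold. Cyp51, the lanosterol demethylase, was 906 and 1355 (0.58), a 1.49-fold ratio just short of it. Another probe set of Cyp51 was also higher, at 374 and 441 (0.24). Sc5d, Msmo1 and Cyp51 all act after lanosterol, and each was higher on the knock out array under every scaling run.
The enzymes around them showed smaller differences in both directions. Fdft1, the squalene synthase that commits farnesyl diphosphate to sterols, was 896 and 1137 (0.34), and its other probe set over 500 gave 666 and 665 (0.00). Sqle, the squalene epoxidase, was 1383 and 1502 (0.12). Nsdhl, the C4 decarboxylating dehydrogenase that works with Msmo1, was 785 and 935 (0.25). Ebp, the sterol isomerase whose symbol is unrelated to the protein Ebp1, was 694 and 688 (-0.01). Lss, the lanosterol synthase, was 664 and 541 (-0.30), with 139 and 148 (0.09) on a dimmer probe set.
Members of this part under 500 on both arrays also went both ways. Tm7sf2, a sterol reductase, was 154 and 198 (0.36), and Dhcr7, the reductase of the last step, was 340 and 272 (-0.32). Hsd17b7, the 3-ketosteroid reductase, was 471 and 449 (-0.07) by the brightest probe set, but 316 and 483 (0.61) and 129.9 and 252 (0.96) by the next ones. With spike-in scaling Sc5d (0.44), Fdps (0.35), Msmo1 (0.19) and Cyp51 (0.19) were still above 0, whereas Idi1 (-0.04), Fdft1 (-0.05), Sqle (-0.27) and Nsdhl (-0.14) were below it.

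**Figure D2:**
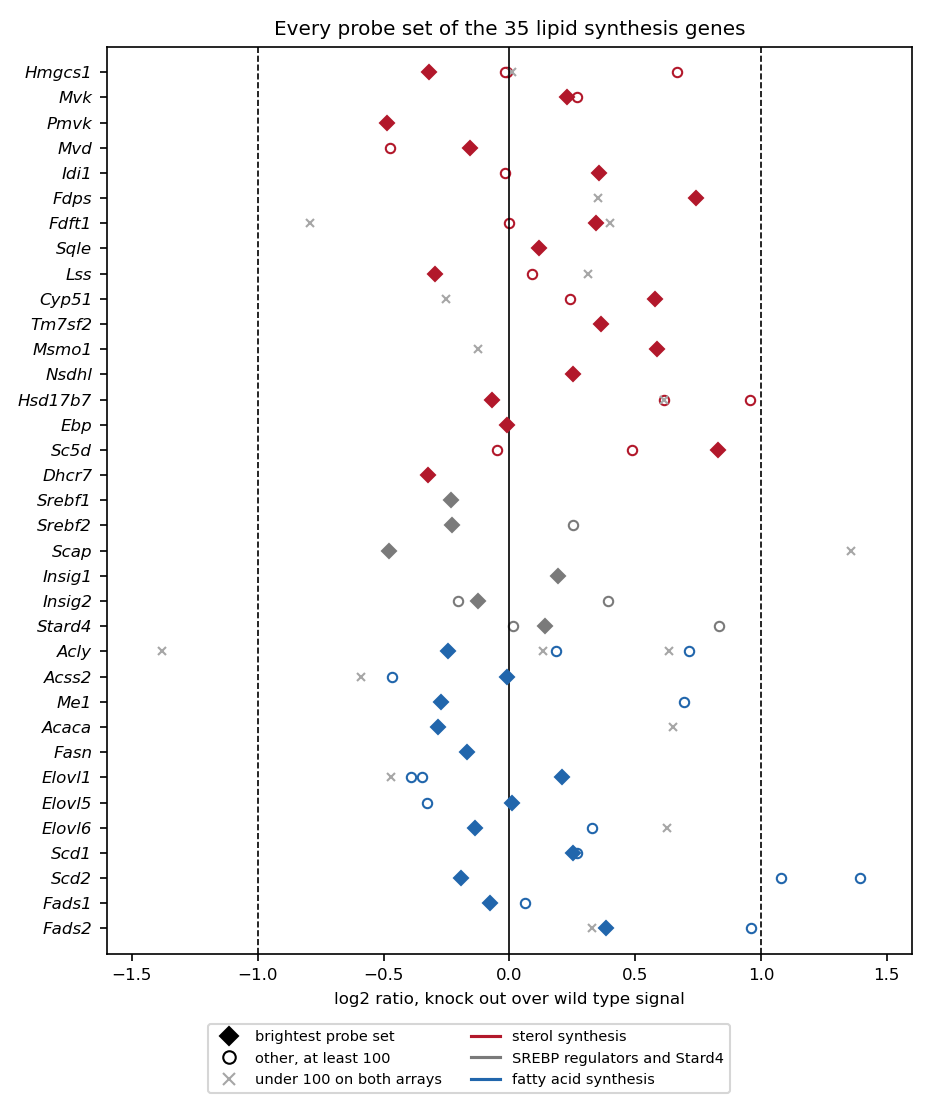
Log2 ratios, knock out against wild type, of the 83 probe sets that cover the 35 genes. Diamonds mark the brightest probe set of each gene, circles the others with at least 100 on 1 array and crosses those under 100 on both, and dashed lines mark 2-fold. For 15 of the 22 genes with several probe sets of at least 100, these lie on both sides of 0, and those of Scd2 spread from -0.19 to 1.39.

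With the deposited scaling the genes that sense sterols differed by less than 1.5-fold on their brightest probe sets, and the sensor Scap was the lowest of them. Scap had a wild type signal of 792 and a knock out signal of 568 (log2 ratio -0.48), while its second probe set was low on both arrays, at 18.1 and 46.4. Srebf1 was 525 and 447 (-0.23) on its 1 probe set, which does not separate the transcripts from its alternative starts. Srebf2 was 938 and 800 (-0.23), and 643 and 765 (0.25) on its other probe set. After median centring Scap was at -0.59. With spike-in scaling Scap was at -0.87 and Srebf1 and Srebf2 at -0.62, where the median of all genes that reached 500 was -0.46. Insig1, itself a well known SREBP target, was 699 and 799.9 (0.19), which turned to -0.20 with spike-in scaling. Insig2 was 563 and 517 (-0.12), with its other probe sets at -0.20 and 0.39. Stard4, which carries cholesterol between membranes, was 886 and 976 (0.14, or -0.25 with spike-in scaling) and 234 and 417 (0.83) on its dimmest probe set. The median of these 6 genes was -0.18, with 2 above 0, against 42.2% of all genes that reached 500.

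In the fatty acid branch all 5 genes that supply acetyl-CoA and NADPH and build palmitate had a log2 ratio below 0 on the brightest probe set under the deposited scaling, though that of Acss2 was near 0. Over all 10553 genes with at least 100 on 1 array, 6130 were below 0. Acly, the citrate lyase that makes cytosolic acetyl-CoA, had a wild type signal of 2192 and a knock out signal of 1852 (-0.24). Its next probe sets were above 0, with 1683 and 1912 (0.18) and 351 and 576 (0.72). Me1, the malic enzyme that supplies NADPH, was 1724 and 1427 (-0.27), but 1103 and 1784 (0.69) on its other probe set. Fasn, the fatty acid synthase, was 1322 and 1175 (-0.17) on its 1 probe set. Acaca, the acetyl-CoA carboxylase, was 431 and 354 (-0.28), and Acss2, the acetyl-CoA synthetase, was 149.6 and 148.8 (-0.01), both under 500. With the mean over probe sets Acly (0.22) and Me1 (0.21) were above 0, so the direction of these 2 genes depends on the probe set.

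As deposited, elongases and desaturases had log2 ratios of either sign, and with spike-in scaling all 7 were below 0. Elovl1, an elongase of very long chains, was 1440 and 1665 (0.21, or -0.18 with spike-in scaling), while its next probe sets gave 1504 and 1183 (-0.35) and 1236 and 943 (-0.39). Elovl5, which elongates polyunsaturated chains, was 1700.4 and 1712 (0.01, or -0.10 after median centring and -0.38 with spike-in scaling) and 1732 and 1381 (-0.33) on its other probe set. Elovl6, which elongates palmitate, was 554 and 504 (-0.13), but 255 and 320.1 (0.33) on a dimmer probe set. No elongase was over 1.5-fold apart on a probe set that reached 500.
Among the desaturases Scd2 stood out for its probe sets. Scd2, a stearoyl-CoA desaturase, was 5896 and 5154 (-0.19) on the brightest of them, 458 and 1201 (1.39) on the next and 70.2 and 148 (1.08) on the dimmest. The middle one was the only probe set of all lipid synthesis genes that reached 500 and was over 2-fold higher, 1 of 41, where 1.64% of all probe sets that reached 500 were over 2-fold higher. Scd1, its close relative, was 1262 and 1504 (0.25), with the same direction on its other probe set (258 and 310.1, 0.27). Fads2, the delta-6 desaturase, was 790.0 and 1031 (0.38) and 275 and 535 (0.96) on a dimmer probe set. Fads1, the delta-5 desaturase, was 1890.0 and 1793 (-0.08). With spike-in scaling Scd1 was at -0.14 and Fads2 at -0.01.

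Probe sets of the same gene often disagreed, by about as much as the branches differed. Of 22 genes with at least 2 probe sets of at least 100, 15 had log2 ratios on both sides of 0, 5 were above 0 on each and 2 were below 0 on each. The median distance between the lowest and the highest log2 ratio of a gene was 0.47. Among probe sets of at least 100 on 1 array, all 7 of these genes with the suffix _x_at and both with _s_at, which mark probes that can match other transcripts, were below 0, a pattern noticed after the values were seen. Over all probe sets on the arrays with the same minimum, 61.1% of those with _x_at and 58.0% of those with _s_at were below 0, against 51.5% of those with _at alone. Of 46 probe sets of these genes with _at alone and at least 100, 15 were below 0. Without the _x_at and _s_at probe sets the branch difference was 0.38. The part of cross-matching probes in these ratios was not tested.

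**Figure D3:**
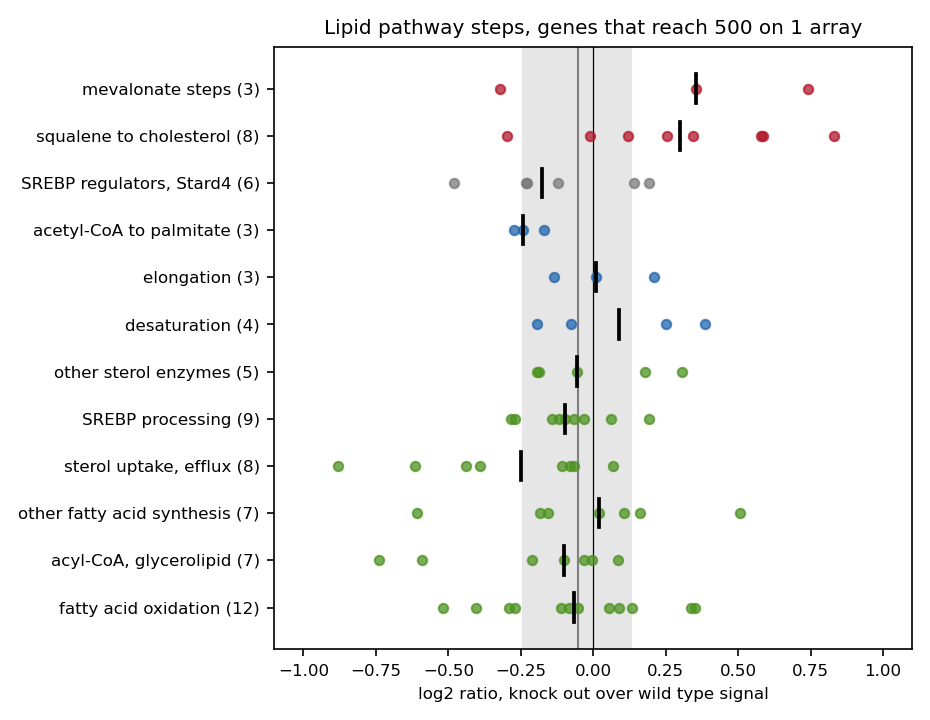
Log2 ratios of genes that reach 500 on at least 1 array, 1 point per gene, for steps of sterol synthesis (red), regulators (grey), fatty acid synthesis (blue) and other lipid pathway lists (green), with the number of genes in parentheses and the median as a black bar. The grey band runs from the 25th to the 75th percentile of all 5014 genes (-0.24 to 0.13). With the deposited scaling, which the band also uses, the medians of both sterol steps (0.36 and 0.30) lie to the right of it. Spike-in scaling moves the sterol median to -0.09 and the median of all genes that reach 500 to -0.46.

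Other enzymes on the edge of the sterol pathway did not share the positive median. In a list of 11 further sterol and isoprenoid enzymes, 5 of the 7 with a probe set reached 500. Their median was -0.05 and 2 were above 0, against 42.2% of all genes that reached 500. The brightest of them were Cyb5r3, the cytochrome b5 reductase (3354 and 3229, -0.05), Acat1, the mitochondrial thiolase (1346 and 1183, -0.19), and Lbr, which is also a sterol reductase (1052 and 919.8, -0.19). Of 9 genes that process SREBP, carry it to the Golgi or bind Insig, all reached 500. Of these 9 genes 2 were above 0, against 42.2% of all genes that reached 500. None was over 1.5-fold apart, where 2.99% of all such genes were higher and 5.11% lower. Mbtps1, the protease that makes the first cut, was 1512 and 1242 (-0.28), and the vesicle coat genes Sar1a and Sec23a were at 0.06 and 0.19. The median of this list was -0.10, near that of all genes.

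Genes of sterol uptake, storage and efflux were mostly below 0. Of 8 that reached 500, 7 had a log2 ratio below 0, against 57.8% of all genes that reached 500, and 2 were over 1.5-fold lower, against 5.11%. Their median was -0.25, against -0.05. The 2 are the LXR target genes Abca1, which exports cholesterol to lipoproteins (611 and 332, -0.88), and Mylip, whose product degrades lipoprotein receptors (929 and 607, -0.62), and both were chosen after their values were seen. Abcg1, another exporter under LXR control and likewise picked afterwards, was 179 and 194 (0.12). Abca1 reached 500 on the wild type array only. Of the 7 genes of this list that reached 500 on both arrays, 6 were below 0 (2416 of 4276 over all such genes). Of these 7 genes 1 was over 1.5-fold lower (2.6% of all such genes). Their median was -0.11, against -0.04. By the rule of highest mean log2 signal the list is represented by Npc2, which moves cholesterol out of lysosomes (4586 and 4804, 0.07), Lrp1, an endocytic receptor (3393 and 3214, -0.08), and Lipa, the lysosomal acid lipase (1067 and 788, -0.44).

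Further fatty acid and glycerolipid genes had no member over 2-fold apart among those that reached 500. In a list of 18 other fatty acid synthesis genes 7 reached 500, with a median of 0.02. Tecr (2902 and 3247, 0.16), Hacd1 (2085 and 2246, 0.11) and Hsd17b12 (1778 and 2524, 0.51), all of the elongation cycle, had the highest mean log2 signals. Hacd2 was the 1 gene over 1.5-fold lower (1020.5 and 669, -0.61), against 5.11% of all genes that reached 500. Of 7 acyl-CoA and glycerolipid genes 6 were below 0 (57.8% of all genes) and 2 were over 1.5-fold lower (5.11%), with a median of -0.10. The long chain acyl-CoA synthetase Acsl5 was 1095 and 1022 (-0.10), and the lysophosphatidate acyltransferase genes Agpat3 and Agpat1 had log2 ratios of 0.00 and 0.09. Those over 1.5-fold lower were Lpl, the lipoprotein lipase (590.1 and 354, -0.74), and Gpam, the acyltransferase that begins triglyceride synthesis (711 and 472, -0.59). Hacd2, Lpl and Gpam were chosen after their values were seen. Lpl and Gpam reached 500 on the wild type array only. Of the 5 acyl-CoA and glycerolipid genes that reached 500 on both arrays, 0 were over 1.5-fold lower, against 2.6% of all such genes. The median of these 5 genes was -0.03, against -0.04 over all genes that reached 500 on both arrays.

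Adipocytes make fatty acids at a high rate, so their markers are given beside the fatty acid genes. Of 6 adipocyte markers with a probe set, Adipoq (2.90 and 2.86), Cidec (2.71 and 5.65) and Pparg (44.0 and 10.8) were under 100 on both arrays. Fabp4, a fatty acid carrier that other cells also make, was 359 and 981 (1.45), over 2-fold higher in knock out MEFs. The other markers over 100 were not higher, with Lpl at 590.1 and 354 (-0.74) and Cebpa, an adipogenic transcription factor, at 220.2 and 205 (-0.10). The 6 markers summed to 1219 on the wild type array and to 1559.7 on the knock out array, and Fabp4 alone carried that rise. The epithelial sum went from 348 to 1562 through Epcam (174 and 1350.5, log2 ratio 2.96), with the other 3 epithelial markers under 100. Macrophage markers summed to 991 and 879.8 (2 higher, 3 lower), neural ones to 1368 and 1658 (2 higher, 2 lower), and endothelial ones to 199 and 219.9, with Kdr higher and the other 3 lower. The part of any of these cells in the lipid gene ratios was not tested.

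**Figure D4:**
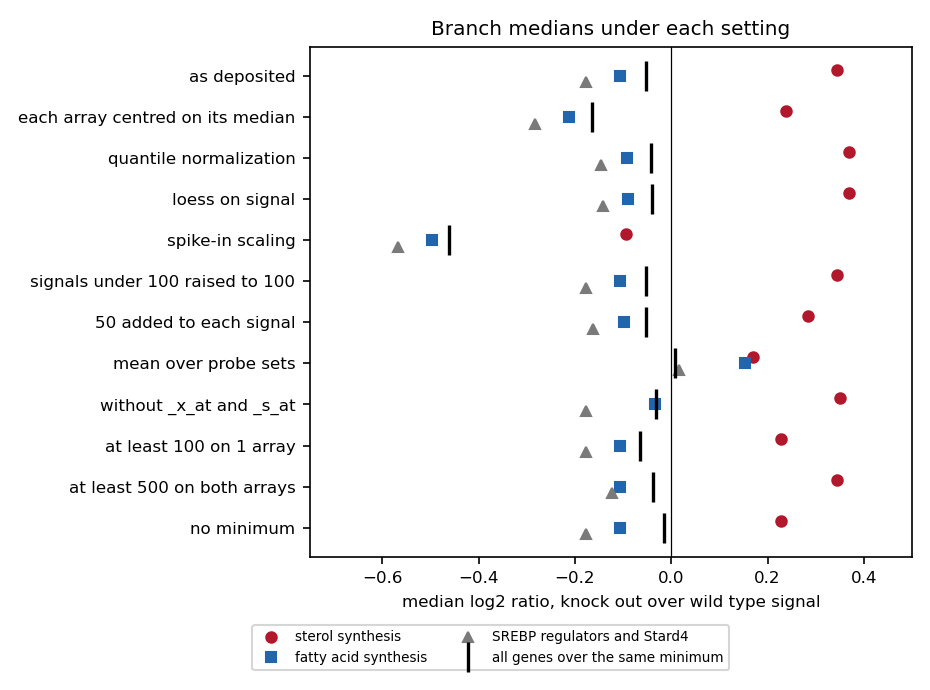
Median log2 ratio of the sterol branch (circles), the fatty acid branch (squares) and the regulators with Stard4 (triangles) under each processing setting, beside the median of all genes over the same minimum (black bars). The sterol median is to the right of the others throughout, but with the mean over probe sets it is 0.17 against 0.15 for the fatty acid branch.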

How the data were processed

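RNA from wild type and Ebp1 knock out MEFs (1 sample each) was hybridized to 1 array per genotype. The authors made the deposited signal intensity of each probe set with MAS5 and scaled each array to a constant target, so the values are relative and a shift common to all genes is not visible. Of 45037 probe sets without controls, 34945 had 1 gene symbol, 932 had several and 9160 were unnamed here. Symbols were updated through Entrez identifiers (GRCm38.p6). Signals under 100 made up 57.9% of wild type and 57.1% of knock out values, and the number of arrays limits the precision.

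Ratios were computed as log2 of knock out over wild type signal, with no pseudocount and no test. Members, lists and settings were chosen with earlier results of these data known. Genes named are all members, and of each other list those over 2-fold with at least 500 and up to 3 others with the highest mean log2 signal. All adipocyte markers with a probe set are given beside the fatty acid genes. Any others are said to be chosen after their values were seen. Alternatives covered the scaling, low signals, the probe set and the minimum. The scaling and ratio steps were tested on simulated data with changes over 2-fold, larger than those of these genes on their brightest probe sets. The 1.5-fold counts, branch medians and motif counts were not tested in this way. The loess fraction was 0.3 (statsmodels 0.14.6). Tables were handled in pandas 2.3.3 and numpy 2.4.6 under Python 3.11.15, and figures drawn with matplotlib 3.10.9.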

Additional observations from a re-analysis of the deposited data

How the results depend on the processing

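The count of 0 genes over 2-fold in either direction was the same under all scalings, minimums and probe set choices run, and at a 1.5-fold threshold it was 3 higher and 0 lower. That 1.5-fold count was run under each setting after the values were seen. It was 0 higher and 8 lower with spike-in scaling (0.712% and 32.9% of all genes), and 2 higher and 1 lower with median centring (1.87% and 8.15%). Under the others it was from 2 to 4 higher, against 1.8% to 14% of all genes, and 0 lower, against 2.6% to 12%. The sterol, fatty acid and regulator medians (0.34, -0.11 and -0.18) were 0.24, -0.21 and -0.28 after median centring and -0.093, -0.50 and -0.57 with spike-in scaling, since these scalings lower all ratios together (the median of all genes that reached 500 moved by -0.11 and -0.41). With the mean over probe sets they were 0.17, 0.15 and 0.016. The sterol median was 0.23 with a minimum of 100 and with none. The difference between the sterol and fatty acid medians (0.45) was 0.33 with a minimum of 100 or none and 0.017 with the mean over probe sets, and from 0.38 to 0.46 under the other settings. A median was taken as moved past 0.1 on the log2 scale. Of 27 single genes, 10 changed sign with spike-in scaling, 9 with the mean over probe sets, 2 without _x_at and _s_at probe sets and 1 each with median centring, quantile normalization and loess. Only Scd2 moved by over 1.5-fold, to 0.76 with the mean over probe sets. The cause was not tested for any of these. No paired analysis was possible because each genotype was hybridized to a single array.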

Other observations

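Fatty acid oxidation, which runs opposite to synthesis in mitochondria, was measured by 14 of 16 listed genes with a probe set, of which 12 reached 500. None was over 1.5-fold apart, where 2.99% of all genes that reached 500 were higher and 5.11% lower. Of the 12 genes 5 were above 0, against 42.2% of all such genes, and the median log2 ratio was -0.07, against -0.05. Those named by the rule of highest mean log2 signal were Hadh, the short chain hydroxyacyl-CoA dehydrogenase (wild type 2462, knock out 1718, -0.52), Cpt1a, the carnitine palmitoyltransferase that admits long chains to mitochondria (1884 and 2002, 0.09), and Acadl, the long chain acyl-CoA dehydrogenase (1811 and 1987, 0.13). Ppara and Ppargc1a, regulators of oxidation named after their values were seen, were under 100 on both arrays.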
